A study of Mus musculus with 2 samples.

Results

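The genes described here encode the SR proteins (Srsf genes), the heterogeneous nuclear ribonucleoproteins (hnRNPs, Hnrnp genes) and the SR-like proteins Tra2a and Tra2b. All genes with symbols beginning Srsf or Hnrnp, and both Tra2 genes, were taken, without pseudogenes, which gave 33 of the 43346 mouse genes listed: 11 SR, 20 hnRNP and 2 Tra2 genes. All 219 of their transcripts, of 103639 listed, were included. Polyadenylated RNA was sequenced from G1E-ER4 cells, an immortalized mouse erythroid line in which Gata1, the gene of the erythroid master regulator, has been restored and differentiation is induced by estradiol. The cells had been in 10 nM 17beta-estradiol for 3 h. There is 1 group of 2 libraries, numbered as biological replicates 1 and 2, and no untreated library was analysed here, so no effect of estradiol can be read from the values.

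SR proteins carry RNA recognition motifs and a domain rich in arginine and serine repeats; bound to exonic enhancers, they help the splicing machinery to choose an exon. The hnRNPs coat nascent transcripts, and many of them silence splice sites, so that the balance of both families sets many alternative exons. Many of these genes are also known to limit their own protein by splicing part of their RNA into forms with an early stop codon or a kept intron, which are degraded by nonsense-mediated decay or stay in the nucleus.

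The tables hold 31126956 expected counts for replicate 1 and 57853617 for replicate 2. All 9 erythroid markers examined were detected, and their levels summed to 4594 and 18813 TPM in replicates 1 and 2. TPM is a relative transcript level corrected for length and depth, and paired values are given below in the order replicate 1, replicate 2. The libraries stood far apart in the globins, with Hbb-bs at 863 and 9484 TPM and Hba-a1 at 149 and 6606 TPM. Gata1, the gene restored in this line, stood at 190 and 799 TPM. Whether its counts come from the restored copy or from the cells' own gene cannot be told from these values. In the test described below, 5 of the 9 were higher in replicate 2 and 3 in replicate 1: the erythroid regulators Klf1 (786 and 350.5 TPM), Tal1 (120 and 79.1 TPM) and Zfpm1 (2427 and 1438 TPM). Of the megakaryocyte markers, 2 of 4 were detected, with sums of 29.9 and 83.0 TPM, and Vwf had 0 counts. None of the markers of epithelium, neurons, fibroblasts, mast cells or granulocytes reached 1 TPM in both libraries. The part that these differences between the libraries play in the member values below was not tested.

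Nearly the whole family was present. A level of at least 1 TPM in both replicates was found for 32 of the 33 genes, against 20.2% of all listed genes and 38.6% of protein-coding genes. The exception was Srsf12, an SR protein related to Srsf10, which had 0 counts in both libraries, where a count of 0 allows up to 3 counts. The members were also high. Their median was 203 TPM in the first and 124 TPM in the second library, beside 20.3 and 19.1 TPM over the detected genes. At least 100 TPM in both replicates was reached by 18 members, against 13% of detected genes. Together the 33 genes made up 1.61% of all TPM in replicate 1 and 1.08% in replicate 2, and the 5 highest held 53.5% and 51.7% of that.

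**Figure D1:**
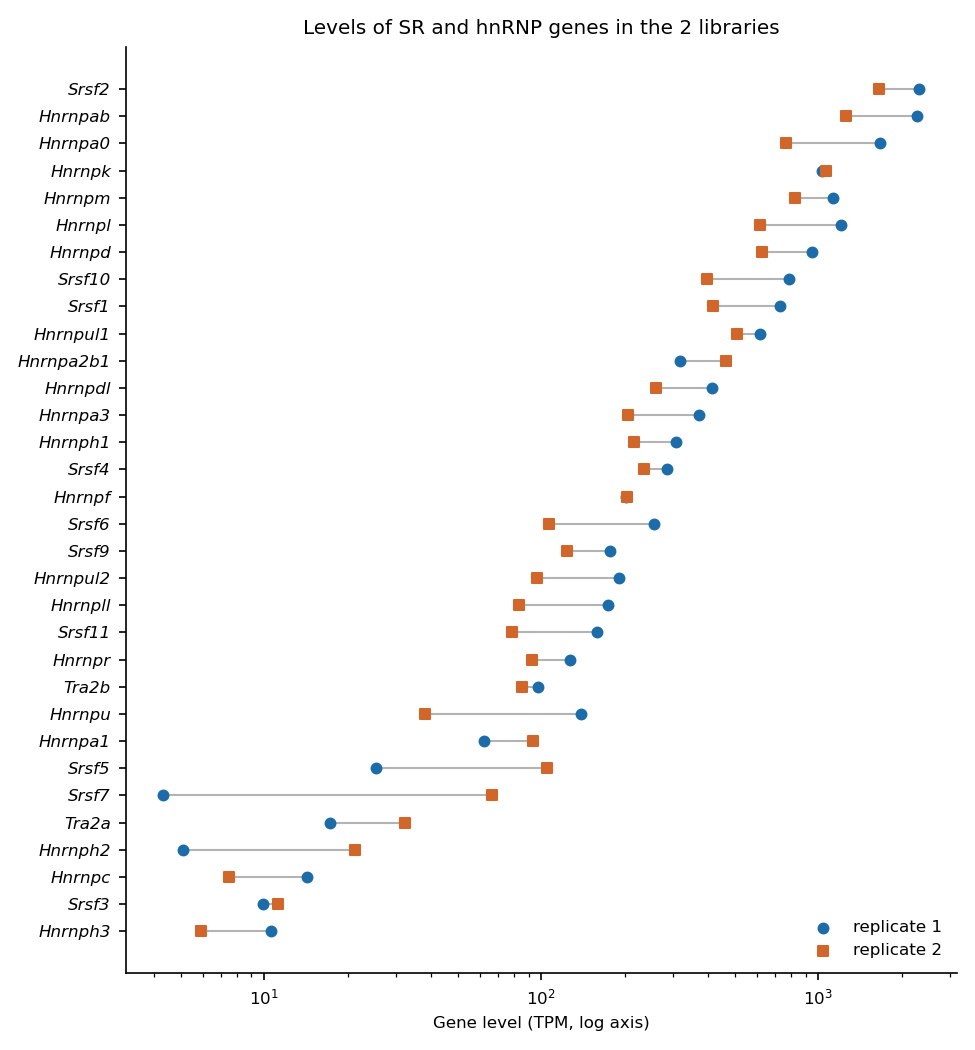
Gene level in TPM (log axis) of the 32 members with counts, ordered by mean level; circles are replicate 1, squares replicate 2, and the grey line joins both. Levels run from Srsf2 (2313 and 1656 TPM) down to Hnrnph3 (10.6 and 5.94 TPM), and Srsf7 has the widest gap (4.33 and 66.6 TPM).

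Among the SR genes, Srsf2, which encodes a component of nuclear speckles also called SC35, had the highest level of all members in both libraries. It stood at 2313 and 1656 TPM, a mean of 1984 ± 465 TPM (SD, n = 2). Srsf10, an SR protein that turns into a splicing repressor when it is dephosphorylated, stood at 781 and 398 TPM. Srsf1, the founding member that binds purine-rich enhancers, stood at 729 and 417 TPM. These 3 were all higher in replicate 1. Srsf4 stood at 284 and 235 TPM. Srsf6 stood at 256 and 107 TPM. Srsf9 stood at 177 and 124 TPM. All of these middle-ranked SR genes had the higher TPM in replicate 1 as well. Srsf11, an SR protein that contacts U2AF, stood at 159 and 78.5 TPM. Srsf5 stood at 25.4 and 105 TPM. Srsf7, whose protein has a zinc knuckle beside its RNA recognition motif and takes part in RNA export, stood at 4.33 and 66.6 TPM. Srsf5 was thus below Srsf11 in replicate 1 and above it in replicate 2, and Srsf7 was below Srsf11 in both. Srsf3, the smallest SR protein, was the second lowest detected member by its mean, at 9.93 and 11.2 TPM, a mean of 10.6 ± 0.933 TPM (SD, n = 2).

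The Tra2 proteins bind GAA-rich enhancers together with SR proteins. Tra2b stood at 97.2 and 85.1 TPM. Tra2a stood at 17.3 and 32.1 TPM. Tra2b was the higher of both in each library.

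The hnRNP genes held the larger part of the family's RNA, with sums of 11212 and 7456 TPM, beside 4738 and 3199 TPM for the SR genes. Of the A/B group, Hnrnpab stood at 2279 and 1256 TPM (mean 1768 ± 723 TPM, SD, n = 2). Hnrnpa0 stood at 1664 and 764 TPM (mean 1214 ± 637 TPM, SD, n = 2). These were, after Srsf2, the highest members by mean. Hnrnpa2b1 stood at 317 and 464 TPM. Hnrnpa3 stood at 371 and 205 TPM. Hnrnpa1, the most studied splicing silencer of the group, stood lower, at 62.0 and 93.8 TPM. Hnrnpa1 and Hnrnpa2b1 had the higher TPM in replicate 2, and the other three genes of the group in replicate 1.

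Proteins that bind pyrimidine-rich, CA-rich, GU-rich or AU-rich RNA, with their relatives, formed a second set, which ran from abundant genes such as Hnrnpk to the low Hnrnpc. Hnrnpk, which binds C-rich RNA through KH domains, stood at 1032 and 1070 TPM. Hnrnpl, which binds CA repeats, stood at 1205 and 616 TPM. Hnrnpm, which binds GU-rich RNA, stood at 1132 and 821 TPM. Hnrnpk had nearly equal TPM in both libraries (1.04-fold), and the other two were higher in replicate 1. Hnrnpll, the paralogue of Hnrnpl known from exon choice in lymphocytes, stood at 175 and 83.0 TPM. Hnrnpd, also called AUF1 and known for its binding to AU-rich decay elements, stood at 947 and 629 TPM. Its relative Hnrnpdl stood at 414 and 261 TPM. Hnrnpc, which coats uridine tracts of nascent RNA, was among the 3 lowest detected members at 14.2 and 7.47 TPM (mean 10.9 ± 4.78 TPM, SD, n = 2).

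The F/H group binds runs of guanine. Hnrnph1 stood at 307 and 217 TPM. Hnrnpf stood at 203.1 and 204.5 TPM, the closest agreement in TPM among the members, while its scaled counts were 1.29-fold higher in replicate 2. The other two genes of the group were low. Hnrnph2 stood at 5.10 and 21.3 TPM. Hnrnph3 was the lowest detected member by its mean, at 10.6 and 5.94 TPM (mean 8.27 ± 3.29 TPM, SD, n = 2). The remaining genes encode larger, scaffold-like or related proteins. Hnrnpul1 stood at 617 and 510 TPM. Hnrnpul2 stood at 190 and 96.9 TPM. Hnrnpu, also called scaffold attachment factor A, stood at 140 and 38.0 TPM, far below Hnrnpul1 in both libraries. Hnrnpr stood at 127 and 92.5 TPM.

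The replicates were then compared gene by gene on expected counts scaled by TMM factors, a measure other than TPM, which also carries the length of the transcripts. The test was a two-sided exact conditional binomial test with Benjamini-Hochberg adjustment over 10635 genes, and it measures counting noise between these libraries only. It was passed by 31 of the 32 tested members, beside 80.7% of all tested genes. Scaled counts were higher in replicate 1 for 17 members, beside 37.4% of genes, and in replicate 2 for 14, beside 43.3%. Some called members went the other way in TPM. Hnrnpa3, Hnrnph1, Hnrnpr, Hnrnpul1, Srsf4 and Tra2b had the higher TPM in replicate 1, and Hnrnpk in replicate 2. The median log2 ratio of replicate 1 to replicate 2 was 0.09 over the members and -0.06 over all genes. Scaling by total counts shifted the median of all genes to 0.11, and the share of called members that were higher in replicate 1 from 54.8% to 72.4% (from 46.4% to 55.3% over all called genes).

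A difference of at least 2-fold that also passed the test was found for 5 members. In the direction of replicate 1 this was Hnrnpu alone, where 7.2% of all tested genes met the same criterion. Scaled by total counts, Srsf6 (log2 ratio 1.05) and Hnrnpll (1.02) joined it, which made 3, beside 11.8% of genes. Hnrnpu (chr1:178321108-178337797 on GRCm38, minus strand) had 25816 expected counts in replicate 1 and 14720 in replicate 2, although replicate 2 was sequenced more deeply, and its scaled counts were 2.89-fold higher in replicate 1 (log2 ratio 1.53, 95% interval 1.503 to 1.562). Nearly all of it was 1 protein-coding transcript, Hnrnpu-201, in both libraries.

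In the direction of replicate 2 there were 4, where 19.3% of all tested genes met the criterion. Srsf7 (chr17:80200080-80207307, minus strand) had 230 expected counts in replicate 1 and 7423 in replicate 2, and was 19.4-fold higher in scaled counts (log2 ratio -4.28, interval -4.49 to -4.10). The tables hold 1 transcript for it, which is protein coding. Hnrnph2 (chrX:134601179-134607060, plus strand) had 283 and 1926 counts and was 4.11-fold higher (log2 ratio -2.04, interval -2.23 to -1.86). Srsf5 (chr12:80945504-80950507, plus strand) had 758 and 3890 counts and was 3.11-fold higher (log2 ratio -1.64, interval -1.75 to -1.52). Tra2a (chr6:49243924-49264033, minus strand) had 726 and 2822 counts and was 2.35-fold higher (log2 ratio -1.23, interval -1.36 to -1.12). Adjusted p in the exact binomial test was 4.5e-150 for Hnrnph2, 1.1e-224 for Srsf5 and 2.2e-108 for Tra2a, and smaller than the software can store for Hnrnpu and Srsf7. All 4 genes were below the members' median TPM in both replicates.

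Just under the 2-fold line lay Hnrnpa2b1, at 1.96-fold, and Hnrnpa1, at 1.95-fold, both higher in replicate 2 in scaled counts. The largest differences in the other direction after Hnrnpu were Srsf6 at 1.84-fold and Hnrnpll at 1.79-fold. Of the 3 highest members, Srsf2 was 1.04-fold higher in replicate 1 in scaled counts (adjusted p = 3.6e-13 in the exact binomial test). Hnrnpab was 1.69-fold and Hnrnpa0 1.71-fold higher in replicate 1. Of the lowest members, Hnrnpc was 1.49-fold higher in replicate 1 and Srsf3 1.53-fold higher in replicate 2, with adjusted p of 9.2e-19 and 6.4e-17 in the exact binomial test. Hnrnph3 did not pass it (349 and 566 counts, log2 ratio 0.02, interval -0.17 to 0.22, adjusted p = 0.834 in the exact binomial test). Hnrnph1, Srsf4, Hnrnpul1, Hnrnpa3 and Hnrnpr, which differed by less than 1.11-fold, were higher in replicate 2 under TMM factors. Under total counts the last 4 of these were higher in replicate 1, and Hnrnph1 did not pass the exact binomial test (log2 ratio 0.022, adjusted p = 0.463).

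**Figure D2:**
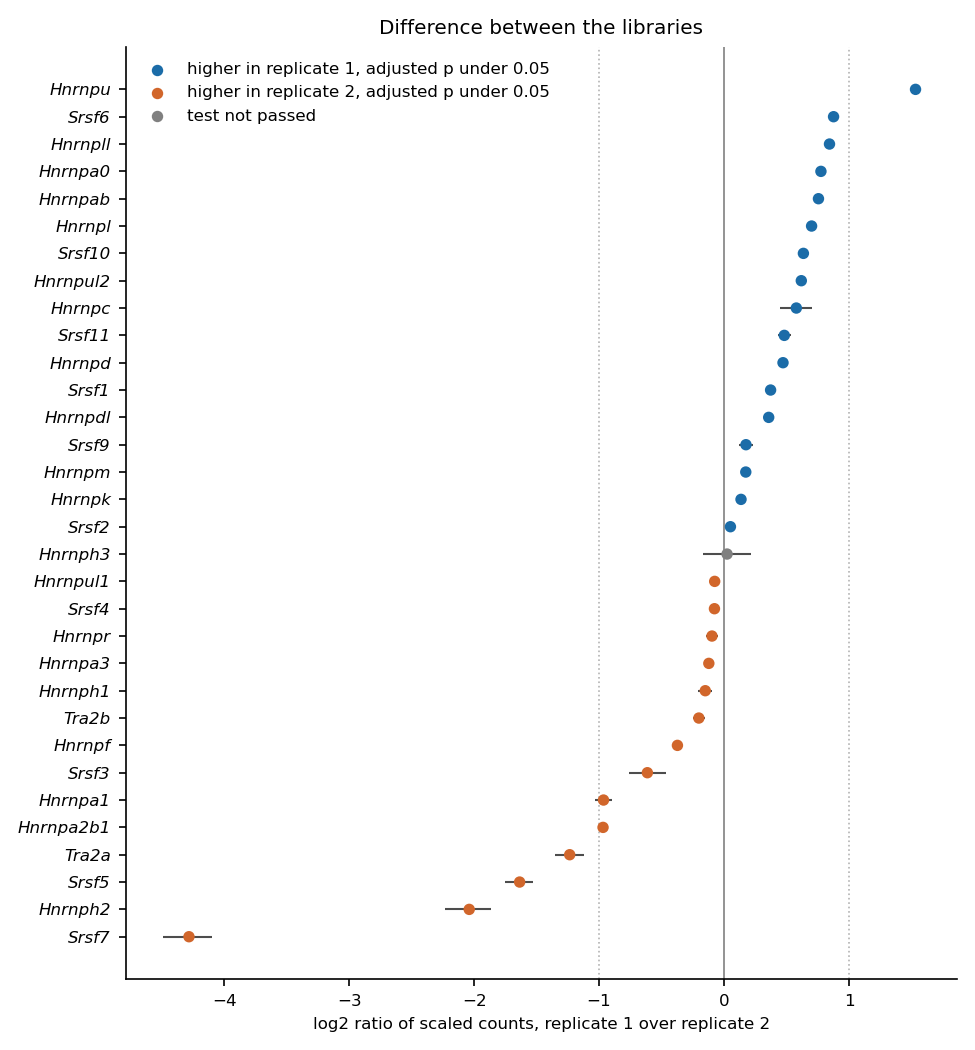
log2 ratio of scaled counts, replicate 1 over replicate 2, for the 32 tested members, with 95% intervals that cover counting error only; blue and orange points passed the exact binomial test, and dotted lines mark 2-fold. Hnrnpu lies beyond the line on the side of replicate 1 and Tra2a, Srsf5, Hnrnph2 and Srsf7 on the side of replicate 2.

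Transcript length moved with the ratios over all genes. The median log2 ratio rose from -0.10 in the shortest quartile of genes by effective length to 0.02 in the longest. The members in these quartiles, 6, 11, 11 and 4 genes, had medians of 0.16, 0.05, -0.10 and 0.75. Near-identical copies elsewhere in the genome, at 95% identity over at least 200 bases, carried few counts. Hnrnpa3 had 28 such copies, which together held counts equal to 11.1% of its own in replicate 1 and 7.25% in replicate 2. Hnrnpa1 had 7, with 9.21% and 3.80%. Reads credited to these 2 genes could also come from a copy, so these shares do not bound the uncertainty of their levels. Adding the copies changed no member's call, which does not check that direction. Genes that overlap Hnrnpab, Hnrnpd, Hnrnpf, Hnrnpk, Hnrnpm, Hnrnpr, Srsf2 and Srsf4 could share reads with them, since the use of strand in the counting is not stated.

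What kind of transcript made up these levels differed widely between members. The annotation classes some transcripts as targets of nonsense-mediated decay or as holding a retained intron. Both are called unproductive here from their class alone, and some decay forms end at the same stop codon as a coding transcript. The classes come from a later annotation than the tables, in which 71 of the 77 unproductive member transcripts have the same length. For 18 detected members such transcripts are listed. Their median share of the gene's TPM was 47.9% in replicate 1 and 18.1% in replicate 2, beside 7.87% and 7.43% over the 4118 detected genes that have such transcripts. A share of at least 20% in both replicates was found for 8 of the 18, beside 30.8% of those genes, and of at least 50% for 5, beside 17.5%. As shares of expected counts, in which short transcripts weigh less, these were 7 members, beside 26% of genes, and 2 members (Hnrnpll and Hnrnpdl), beside 11.7%. Summed over transcripts, however, unproductive forms held 36.1% of the TPM of these members in replicate 1 and 23.8% in replicate 2, beside 35.0% and 32.0% over those genes. Over 95% of the TPM was protein coding in both libraries for 16 members, among them the abundant Srsf2, Hnrnpab, Hnrnpa0 and Hnrnpul1. Hnrnpab, Hnrnpa0 and Hnrnpul1, like others of the 16, have only protein-coding transcripts listed, so their share was fixed by the annotation. Srsf2 has unproductive transcripts listed as well. The same count over all detected genes was not made.

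In 4 members the unproductive share was high and lay within 5 percentage points in both libraries. Hnrnpll had 88.9% and 91.1% of its TPM on unproductive transcripts. Its protein-coding transcripts stood at only 19.3 and 7.42 TPM. The transcript Hnrnpll-203, classed as a target of nonsense-mediated decay, had 131.5 and 74.5 TPM, or 75.3% and 89.7% of the gene. It holds an 83-base exon that lies outside all exons of the gene's protein-coding transcripts in the tables (called coding exons here), and its reading frame ends there, 807 bases before the last exon junction. A stop codon this far ahead of a junction is what the decay pathway is known to recognise. The stretch of this exon that ends in the stop (chr17:80044976-80045022, minus strand, GRCm38) is shown with the stop codon in capitals, beside the corresponding stretch of Srsf11-206 (chr3:158024209-158024231, minus strand), whose 109-base stop exon also lies outside coding exons:
Hnrnpll-203: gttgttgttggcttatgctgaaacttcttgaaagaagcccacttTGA
Srsf11-206: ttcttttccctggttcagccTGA

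Hnrnpdl had 83.5% and 87.5% unproductive TPM. Its most abundant transcript, Hnrnpdl-205, is a nonsense-mediated decay form and held 52.9% and 55.7% of the gene. The decay form Hnrnpdl-201 held a further 15.7% and 17.5%. Hnrnpdl-201 ends at the stop codon of a coding transcript, 126 bases before its last exon junction. Hnrnpm had 63.7% and 65.7%, nearly all on the short retained-intron transcript Hnrnpm-203, at 718 and 539 TPM. This transcript has 636 bases in the tables and 2626 in the annotation that gives its class, so its class is uncertain. Tra2b had 58.9% and 56.7%, nearly all on the retained-intron transcript Tra2b-203, which has 87% of its length outside coding exons. The 1376 bases of Tra2b-203 stood at 54.3 and 48.0 TPM, above the main coding transcript Tra2b-204 at 39.7 and 36.8 TPM. TPM weighs short transcripts more than counts do. As a share of expected counts, the mean of both libraries fell from 64.7% to 28.9% for Hnrnpm, from 57.8% to 33.8% for Tra2b and from 85.5% to 75.6% for Hnrnpdl.

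Srsf10 and Hnrnph1 stood on transcripts with no annotated reading frame at all. For Srsf10, 99.3% of the TPM in replicate 1 and 99.1% in replicate 2 lay on such transcripts, and Srsf10-210, of 677 bases, alone had 748 and 383 TPM. This transcript held 10033 of the gene's expected counts in replicate 1 and 10545 in replicate 2. The coding transcripts of Srsf10 had 5.82 and 3.63 TPM, so the gene was the 8th and 11th highest member by gene level but the 29th and 32nd by coding level. Hnrnph1 had 98.0% and 91.1% on transcripts without a reading frame, led by Hnrnph1-206 of 581 bases at 159 and 80.7 TPM. All bases of Hnrnph1-206 lie within coding exons of the gene, whereas 392 bases of Srsf10-210 lie outside them. By expected counts the share without a reading frame was 92.1% and 72.2% for Hnrnph1.

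**Figure D3:**
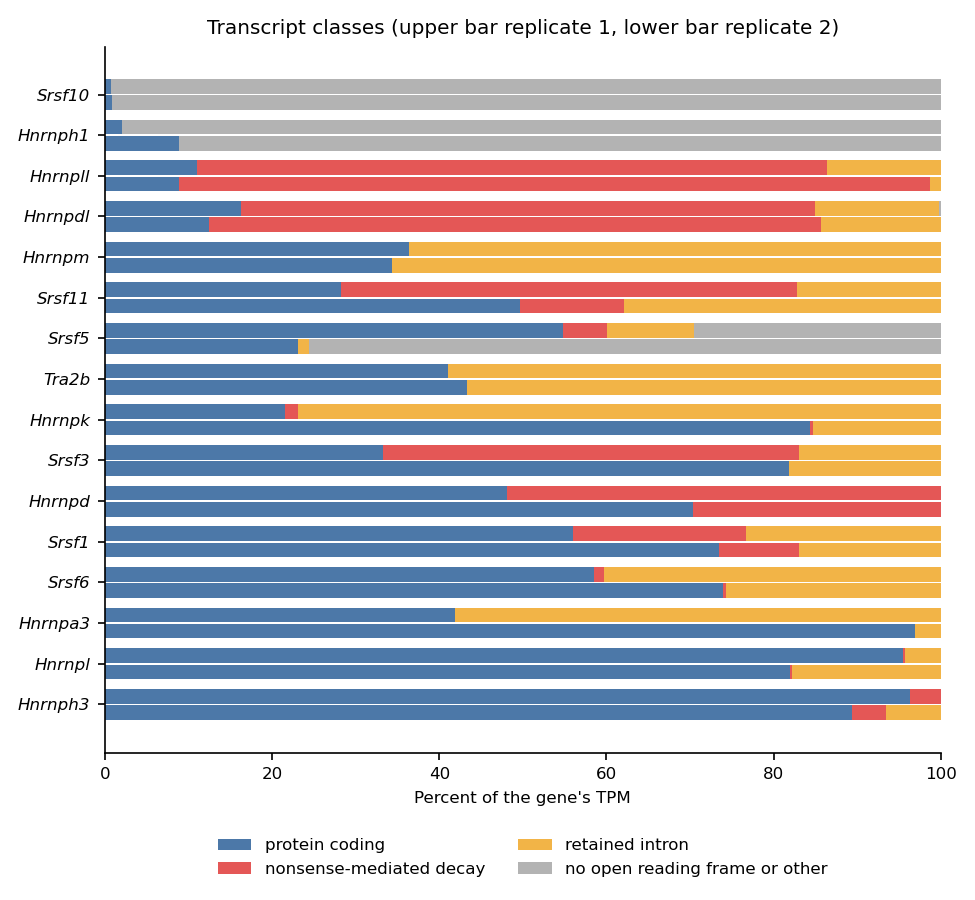
Percent of each gene's TPM on protein-coding, nonsense-mediated decay, retained-intron and other transcripts, for the members below 95% protein coding in either library (upper bar replicate 1, lower bar replicate 2). Hnrnpll, Hnrnpdl, Hnrnpm and Tra2b look alike in both libraries, and Hnrnpk, Hnrnpa3 and Srsf3 do not.

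In 9 of the 18 members the unproductive share differed by at least 10 percentage points between the libraries, beside 34.5% of the genes with such transcripts. Hnrnpk is the widest case: its gene level was nearly equal in both libraries, while its unproductive share was 78.4% in replicate 1 and 15.7% in replicate 2. The retained-intron transcript Hnrnpk-206 stood at 791 and 156 TPM and the coding transcript Hnrnpk-213 at 6.66 and 638 TPM, and the authors' intervals for either transcript did not overlap between the libraries. Coding transcripts of Hnrnpk summed to 223 and 902 TPM. Hnrnpa3 had 58.1% and 3.13% unproductive TPM, and 27.5% and 0.930% of its expected counts. Its retained-intron transcript Hnrnpa3-205, of 596 bases, stood at 216 and 6.42 TPM, and its coding transcript Hnrnpa3-204 at 111 and 184 TPM. Thus the higher gene TPM of Hnrnpa3 in replicate 1 lay on the retained-intron form, and its coding TPM was the higher in replicate 2 (156 and 199 TPM).

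The introns kept in these transcripts begin at a GT that the coding transcripts splice from. The 20 coding bases before that GT and the intron bases after it are shown for forms described here, with GT in capitals. The introns have 207 bases in Hnrnpk-206 (chr13:58394036-58394095, minus strand), 78 in Hnrnpa3-205 (chr2:75661798-75661857, plus strand), 285 in Hnrnpdl-206 (chr5:100036441-100036500, minus strand) and 672 in Srsf6-204 (chr2:162932123-162932182, plus strand), all on GRCm38. Srsf6-204 keeps 3 introns of coding transcripts, not all of them separate, that together cover 1283 bases, and the length given is that of 1 of them. Only 1118 bases of Srsf6-204 lie outside coding exons, so part of the 1283 bases is exon in a coding transcript. For Srsf1-206 (chr11:88048655-88048714, plus strand) the transcript runs into a 368-base intron without crossing it:
Hnrnpk-206: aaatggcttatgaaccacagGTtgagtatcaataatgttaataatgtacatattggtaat
Hnrnpa3-205: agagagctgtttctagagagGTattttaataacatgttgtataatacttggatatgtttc
Hnrnpdl-206: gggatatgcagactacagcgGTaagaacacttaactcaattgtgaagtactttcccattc
Srsf6-204: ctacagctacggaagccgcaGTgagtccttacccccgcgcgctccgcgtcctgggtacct
Srsf1-206: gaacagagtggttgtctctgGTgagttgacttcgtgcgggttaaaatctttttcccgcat

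The SR genes with unproductive forms had the larger share in replicate 1. Srsf11 had 71.7% in replicate 1 and 50.4% in replicate 2. The decay form Srsf11-206 shown above stood at 86.2 and 9.44 TPM, while the retained-intron form Srsf11-205 stood at 0 and 23.7 TPM. The coding TPM of Srsf11 was much closer, at 44.9 and 39.0. Srsf3 had 66.8% and 18.1%, on few counts. The decay form Srsf3-201 had 218 expected counts in replicate 1 and 0 in replicate 2, and its class is uncertain too, with 1919 bases in the tables and 2594 in the annotation. Srsf1 had 44.0% and 26.6%. Its most abundant transcript in both libraries was the coding Srsf1-202, at 373 and 292 TPM, followed among unproductive forms by Srsf1-206, at 170 and 71.1 TPM. Srsf6 had 41.5% and 26.1%, of which the retained-intron form Srsf6-204 stood at 103 and 27.4 TPM. Srsf5 had 15.7% and 1.25%, and a further 29.5% and 75.6% on transcripts without a reading frame. Its higher level in replicate 2 lay mostly on those, led by Srsf5-211 at 1.26 and 44.6 TPM, while its coding TPM was 13.9 and 24.3. The exceptions to the direction were Srsf2 and Srsf4, with under 1% unproductive TPM in either library.

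Among the hnRNP genes, Hnrnpd had 51.9% and 29.6%, nearly all on the decay form Hnrnpd-205 at 491 and 186 TPM. Its coding TPM was 456 in replicate 1 and 443 in replicate 2, so that the difference in gene TPM lay on the decay form. This holds for TPM only. By expected counts, in which this short form weighs less, the unproductive share of Hnrnpd was 32.9% and 21.9%. Hnrnpl went the other way, with 4.49% and 18.1%. Its coding transcript Hnrnpl-209 led in both libraries, at 835 and 381 TPM. Hnrnpu had 0.752% and 1.34%, and Hnrnph3 had 3.68% and 10.6%. Over all 18 members, the share was higher in replicate 1 for 9, beside 45.6% of genes with such transcripts.

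The most abundant transcript was a different one in the 2 libraries for 8 of 28 detected members with several transcripts, beside 26.9% of all such genes. These were Hnrnpa3, Hnrnpd, Hnrnph2, Hnrnph3, Hnrnpk, Srsf11, Srsf3 and Srsf5. For Hnrnpd the decay form Hnrnpd-205 led in replicate 1 and the coding Hnrnpd-201 in replicate 2 (14.3 and 207 TPM). For Hnrnph2, Hnrnph2-202 led in replicate 1, at 3.07 and 0.81 TPM, and Hnrnph2-201 in replicate 2, at 0 and 15.8 TPM. For Hnrnph3, Hnrnph3-203 led in replicate 1, at 4.96 and 0.39 TPM, and Hnrnph3-202 in replicate 2, at 1.97 and 2.49 TPM. For Srsf3, the coding transcript Srsf3-202 led in replicate 2, at 3.30 and 9.20 TPM. For Srsf5, Srsf5-205 led in replicate 1, at 5.28 and 0.56 TPM. For Srsf11, the leaders were Srsf11-206 in replicate 1 and the coding Srsf11-202 in replicate 2, at 42.2 and 28.1 TPM.

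Hnrnpab shifted between coding transcripts with no change of the leading one. It kept Hnrnpab-203 as its leading transcript, with nearly equal levels of 1257 and 1204 TPM, whereas Hnrnpab-202 stood at 907 and 5.02 TPM. The higher gene level of Hnrnpab in replicate 1 thus lay on Hnrnpab-202. Srsf2-206 led in both libraries, at 2174 and 1325 TPM. Hnrnpa0 and Hnrnpul1 each stood wholly or almost wholly on 1 coding transcript. Of 134 member transcripts with at least 1 TPM in either library, 101 had authors' intervals that did not overlap, and the level of these intervals is not stated in the sources used here. The same share over all transcripts was not computed, so this count cannot be read as a trait of the members. Estimates of mean fragment length, from length and effective length, were 137 bases in replicate 1 and 153 in replicate 2; their part in the shift of transcripts was not tested.

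**Figure D4:**
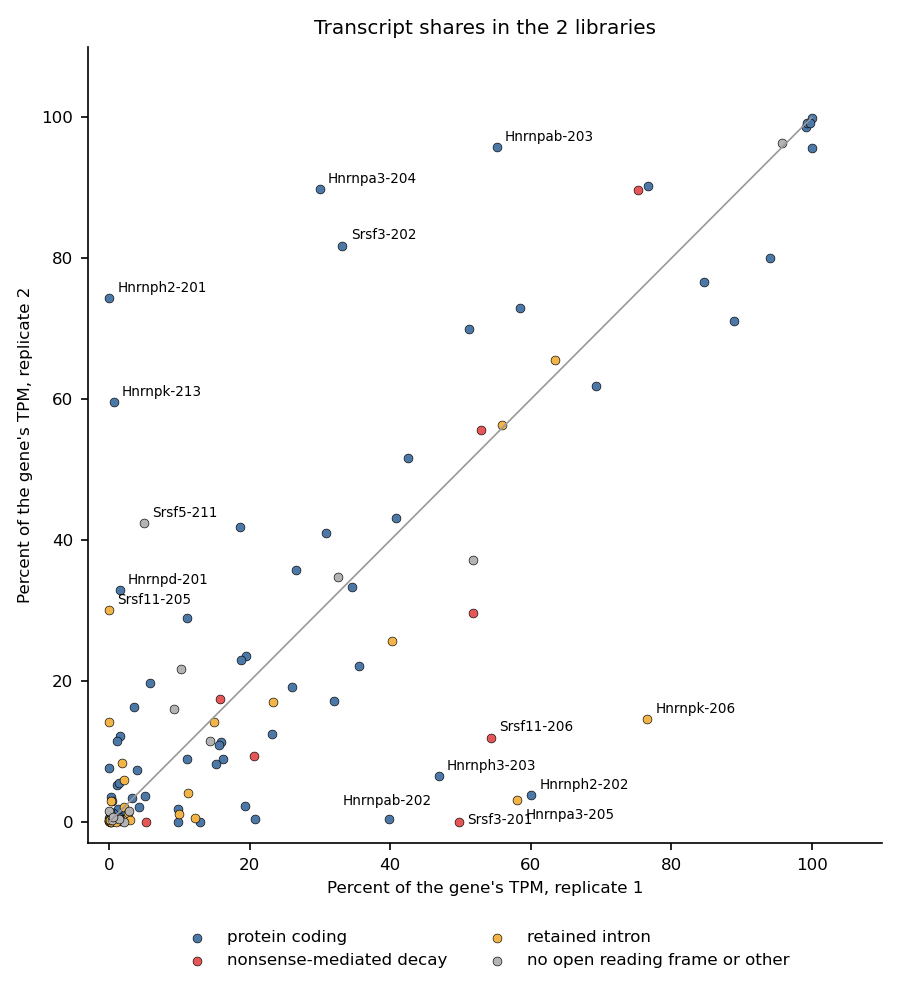
Percent of the gene's TPM held by each member transcript in replicate 1 (x axis) and replicate 2 (y axis), for transcripts with at least 1 TPM in either library of members with several transcripts; colours give the annotated class, and the line marks equal shares. Hnrnpk-206 and Hnrnpa3-205 lie far below the line and Hnrnpk-213 and Hnrnph2-201 far above it.

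The partners of these proteins were read from fixed lists, by the same test; over all tested genes, 37.4% were higher in replicate 1 and 43.3% in replicate 2. Of 11 kinases and import receptors of SR proteins, 10 were tested and 4 were higher in each library. Srpk1, the kinase that phosphorylates SR proteins in the cytoplasm, stood at 16.1 and 93.0 TPM and was 5.20-fold higher in replicate 2 in scaled counts. Clk3, a nuclear SR kinase, stood at 24.3 and 44.8 TPM and was 2.35-fold higher in replicate 2. Clk2 was the highest of the list by the mean, at 99.95 and 67.7 TPM, although Srpk1 and Tnpo3 (89.3 TPM) were above it in replicate 2, and Srpk3 had 0 counts in both libraries.

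Of 11 further proteins counted among the hnRNPs, 5 were higher in replicate 1 and 6 in replicate 2. Pcbp1, a poly(C)-binding protein, was the highest by the mean, at 2271 and 1180 TPM, although Ptbp1 was above it in replicate 2. Its paralogue Pcbp2 stood at 24.8 and 112 TPM, 5.73-fold higher in replicate 2 in scaled counts. Ptbp1, the polypyrimidine tract-binding silencer, stood at 636 and 1365 TPM, 3.95-fold higher in replicate 2, and Rbmx stood at 30.1 and 64.6 TPM, 2.08-fold higher. The lowest members of this list were Pcbp3, at 0.15 and 0.29 TPM (2.68-fold higher in replicate 2), and Ptbp2, at 0.69 and 0.23 TPM (2.24-fold higher in replicate 1). These are the 5 of the list that differed at least 2-fold.

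Of 12 SR-related proteins, 1 was higher in replicate 1 and 8 in replicate 2. Acin1 was the highest, at 943 and 648 TPM, and Srek1 the lowest, at 5.54 and 4.0 TPM. Rnps1, which joins the exon junction complex, stood at 115 and 304 TPM and was 3.17-fold higher in replicate 2 in scaled counts. Of 16 core spliceosome proteins, 8 were higher in each library. Sf1, the branch point-binding protein, was the highest at 2303 and 1630 TPM and Sf3b3 the lowest at 11.1 and 5.62 TPM. In scaled counts Snrnp200 was 2.95-fold, Sf3a1 2.92-fold and Sf3b1 2.02-fold higher in replicate 2, although Sf3a1 had the higher TPM in replicate 1 (493 and 177 TPM).

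The decay machinery that reads early stop codons was detected with all 10 of its listed genes, of which 5 were higher in replicate 1 and 4 in replicate 2. Upf1, its central helicase, stood at 220 and 131 TPM and was the highest. Upf3b stood at 3.40 and 8.28 TPM and was 3.21-fold higher in replicate 2 in scaled counts, and Upf2 was the lowest at 2.90 and 3.38 TPM. Of 16 splicing regulators known for cell type-restricted exons, 9 were detected and 11 tested, with 8 higher in replicate 1 and 2 in replicate 2, none of them by 2-fold. Mbnl1 was the highest by the mean, at 498 and 249 TPM, although Khdrbs1 was above it in replicate 2 (400 and 295 TPM), and Esrp1, Nova2, Rbfox1 and Rbfox3 had 0 counts in both libraries.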

How the data were processed

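Alignment was to mm10 and quantification on GENCODE M4, per the file headers and the readme text deposited beside them; the quantifier is not given in the sources used here, and replicates were not pooled. The deposited expected counts are estimated fragments per gene or transcript, the deposited TPM and FPKM are scaled to length and depth, and the deposited transcript percent is the share of the gene's TPM, per the file headers. Symbols, transcript names, classes, coordinates and sequences were taken from GENCODE M21 (GRCm38, which mm10 also names); 1 of 219 member transcripts was not in M21, and structures were described only for transcripts with the same length in the tables. Members and lists were chosen with earlier results of these data known.

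A quasi-likelihood fit in edgeR would leave no residual degrees of freedom with 1 library a side. Expected counts, rounded to whole numbers, were instead compared between TMM-scaled libraries (edgeR 4.0.16) by an exact binomial test, conditional on the summed count and two-sided, over genes with a summed count of at least 20, with Benjamini-Hochberg adjustment at 0.05; it compares libraries, not conditions. Ratios used a prior count of 2. The test was tested on simulated data with counting noise only, so that check does not cover further variation between libraries. Intervals and limits cover counting error only. Copies were searched with BLAST 2.17.0. Every member was named; full statistics went to members called at 2-fold or more and to the 3 highest and 3 lowest, and transcripts were named for the 10 highest members, those at least 20% unproductive in both replicates and those with different leading transcripts; a few others, such as the donors shown, were chosen after their values were seen. Of each list the highest, the lowest and all called 2-fold genes were named. Spike-ins (97, no counts) and 26248 entries named by number were left out. Alternatives were DESeq2 1.42.0 size factors, total counts, no minimum count, posterior mean values, other fold and detection limits, expected counts for transcript shares, and each replicate alone.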

Additional observations from a re-analysis of the deposited data

How the results depend on the processing

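DESeq2 size factors, no minimum count, posterior mean counts and added copies kept the direction and the call of all 32 tested members. Under total counts, 26 did so. There the log2 ratios of Hnrnph1 (0.022), Srsf4 (0.096), Hnrnpul1 (0.098), Hnrnpa3 (0.051) and Hnrnpr (0.076) reversed, Tra2b (-0.03, adjusted p = 0.280) and Hnrnph1 (adjusted p = 0.463) no longer passed the exact binomial test, 29 members were called in place of 31, 7 of them at 2-fold in place of 5, and 8 members were higher in replicate 2. Over the 10635 tested genes, total counts gave 8700 called genes in place of 8584, and 3890 were higher in replicate 2. Of the 7 members at 2-fold, 3 were higher in replicate 1, beside 11.8% of tested genes, and 4 in replicate 2, beside 16%. At fold limits of 1.5 and 3 under TMM factors, 15 and 3 members differed, and the shares over all genes were not computed. The members' median without replicate 1 was 124 TPM and without replicate 2 it was 203 TPM. With expected counts, the mean unproductive share moved by more than the spread between replicates for 7 of 18 members, Srsf11 (33.3%) and Srsf1 (21.7%) among them. No paired analysis was possible because there is 1 group, whose 2 replicates have no partners in another group. Depth limits Srsf3, Hnrnph2, Hnrnph3 and Srsf7 in replicate 1 most. The counts of members by share of expected counts, and the 2-fold counts by direction under total counts, were chosen after seeing the data.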
